A study of Homo sapiens with 6 samples.

Results

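A set of 10 genes around the transcriptional coactivators YAP1 and WWTR1 (the gene of TAZ) were examined in MDA-MB-231 cells, a line derived from a human triple-negative breast carcinoma. They were taken from the count table by symbol: YAP1, WWTR1, TEAD1, TEAD4, CTGF, CYR61, ANKRD1, AMOTL2, LATS2 and AJUBA. CTGF and CYR61 are the older symbols of CCN2 and CCN1. These were 10 of the 54259 gene rows of the table, and all 10 were among the 15277 genes that passed the filter on low counts. Cells labelled shBry carried a short hairpin RNA against brachyury, a T-box transcription factor encoded by T, and cells labelled shNC carried the control hairpin. Each group had 3 libraries. Both groups are the same cell line, the labels name no further agent, and they give neither the hairpin sequences, nor how these were delivered, nor whether a line is 1 clone. Nothing in the labels says that the libraries of a group came from separate cultures, so the p-values measure the spread between these libraries, which may be technical.

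YAP1 and WWTR1 do not bind DNA themselves. When the Hippo kinases, the STK3 and STK4 kinases acting on LATS1 and LATS2, are inactive, both proteins enter the nucleus and join a TEAD transcription factor, which holds the DNA. CTGF, CYR61 and ANKRD1 are the target genes most often used as readouts of that complex. AMOTL2, AJUBA and LATS2 encode proteins that act on the pathway and are also known as its targets. MDA-MB-231 is known for having lost NF2, an upstream activator of the Hippo kinases. The RNA levels given here do not measure the phosphorylation or location of these proteins.

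The targeted gene could not serve as a check on the labels, since T had 0 counts in all 6 libraries. Library totals lay between 19319411 and 22985371 counts, so that 0 counts allow a level of up to 0.131 to 0.155 CPM (the count of a gene scaled to its library total), covering counting error only. The deposited design text calls the RNA pericardial, whereas the sample labels name MDA-MB-231. The 6 marker genes of MDA-MB-231 (VIM, CD44, EGFR, CAV1, ITGB1 and KRT18) were all present. They summed to 4816 to 5087 CPM in shBry and 5533 to 5738 CPM in shNC, most of it VIM (means 3201 and 3860 CPM). CAV1 was called lower in shBry (means 87.5 and 189 CPM). The other markers were not called: VIM and KRT18 had lower means in shBry, and CD44, EGFR and ITGB1 higher ones. ESR1, PGR and CDH1, part of the luminal and epithelial list below, had at most 3 counts in any library. Of 8 cardiac muscle genes, 4 (MYH6, MYH7, NPPA and MYL7) were at 0 in every library and the sum stayed at or below 2.15 CPM, which bears on ANKRD1, a gene also known from heart muscle. Of 6 mesothelial genes, ITLN1 was at 0, and the sum was 51.4 to 57.7 CPM in shBry and 40.1 to 42.0 CPM in shNC, most of it MSLN (44.1 to 49.2 against 27.6 to 34.7 CPM). Its members did not move together: LRRN4 was called higher (log2 fold change 0.76) and CALB2 lower (-2.52), the latter through shNC 3 alone, which stood at 11.1 CPM beside 1.37 CPM in each of shNC 1 and 2. Without shNC 3 neither was called (0.56 and -0.81). The 6 luminal and epithelial genes summed to 22.7 to 23.9 CPM in shBry and 15.8 to 18.96 CPM in shNC. Nearly all of it came from GATA3 (means 13.0 and 10.4 CPM), FOXA1 (6.06 and 5.74 CPM) and EPCAM (4.28 and 1.55 CPM). EPCAM was called higher in shBry, and GATA3 and FOXA1 were not called. The 6 endothelial genes, with CLDN5 at 0, summed to 1.29 to 2.66 and 3.40 to 4.62 CPM. KDR, the only one of them tested, was called lower in shBry (means 1.41 and 2.90 CPM). The 6 fibroblast genes, with DCN at 0, summed to 31.7 to 35.2 and 29.7 to 35.5 CPM, and all 6 leukocyte genes had at most 3 counts. The part of these lists in the results was not tested. In libraries shBry 2 and shNC 3, the deviation of a gene from the mean of the other libraries of its group rose with exon length. Spearman's rho across 13591 genes was 0.36 in shBry 2 and 0.20 in shNC 3 (genes are not independent replicates). It was -0.26 and -0.21 in shBry 1 and 3, and -0.02 and -0.25 in shNC 1 and 2. Deviations within a group depend on each other, so these values do not tell which library of a group is the odd one.

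Of the 10 genes, 4 rose in shBry cells: AJUBA, CYR61, AMOTL2 and ANKRD1. None fell. A gene was called changed when its Benjamini-Hochberg adjusted p in edgeR's quasi-likelihood test over all 15277 genes was below 0.05 and its fold change was over 1.5. By that rule 32.4% of all genes tested were called, 17.1% as higher and 15.2% as lower. The share of 4 in 10 was therefore not far from that of genes in general. The median log2 fold change of the 10 genes was 0.49, beside 0.03 over all genes tested. All 10 estimates were above 0, from 0.02 to 1.29, where 7986 of all 15277 genes had estimates above 0. The estimates of TEAD1 and TEAD4 changed sign in some other settings. Without the limit on the fold, 6 of the 10 passed, all of them higher, where 53.3% of all genes passed and 28% were higher. In the same 6 genes (the 4 called, YAP1 and LATS2) every shBry library lay above every shNC library. Over all genes, 59.5% had groups that did not overlap and 30.6% had all shBry libraries above all shNC libraries. The counts come from bulk RNA, in which fewer cells expressing a gene and less RNA per cell cannot be told apart. With shBry 2 and shNC 3 both left out, 4 of the 10 genes were called, as with all libraries.

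**Figure D1:**
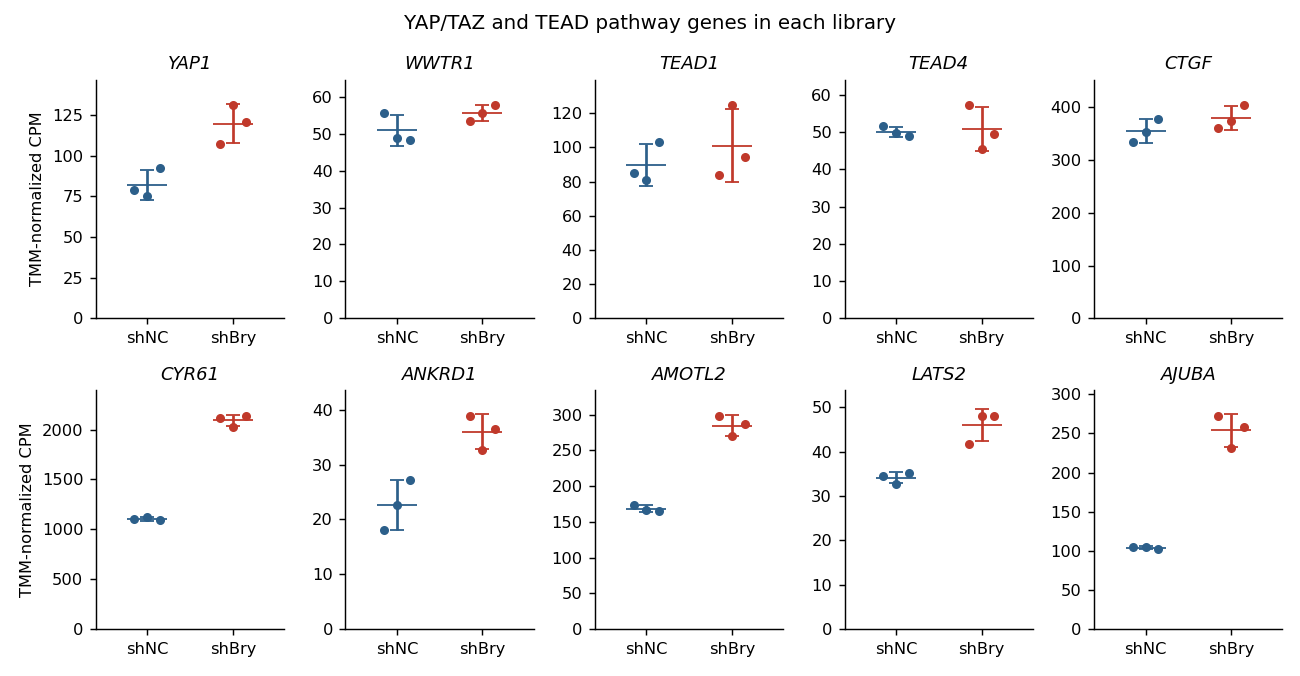
TMM-normalized CPM of the 10 genes in each of the 6 libraries, 1 panel per gene with its own axis from 0; points are libraries, horizontal bars are group means and error bars are SD (n = 3 per group). For AJUBA, CYR61, AMOTL2, ANKRD1, YAP1 and LATS2 the shBry points all lie above the shNC points, while for WWTR1, TEAD1, TEAD4 and CTGF the groups overlap.

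To set the readouts beside their regulatory sequence, the 250 bases before RefSeq transcription starts (GRCh38.p14) were searched on both strands for the TEAD element, spelled GGAATG or its reverse complement CATTCC. RefSeq starts were matched for 7 of the 10 genes (YAP1, WWTR1, CTGF, ANKRD1, AMOTL2, LATS2 and AJUBA). The sequences shown are those of CTGF, which did not pass the test, and of ANKRD1, AMOTL2 and AJUBA, which rose. They read 5′ to 3′ along the gene, which lies on the minus strand in each case, and the capitals mark the TEAD elements.
CTGF, chr6:131951373-131951622: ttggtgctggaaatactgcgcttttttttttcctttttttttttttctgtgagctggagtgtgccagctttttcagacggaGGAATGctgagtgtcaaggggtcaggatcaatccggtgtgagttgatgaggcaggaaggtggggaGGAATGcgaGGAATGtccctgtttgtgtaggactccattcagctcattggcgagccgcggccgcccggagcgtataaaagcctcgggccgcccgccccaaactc
ANKRD1, chr10:90921088-90921337: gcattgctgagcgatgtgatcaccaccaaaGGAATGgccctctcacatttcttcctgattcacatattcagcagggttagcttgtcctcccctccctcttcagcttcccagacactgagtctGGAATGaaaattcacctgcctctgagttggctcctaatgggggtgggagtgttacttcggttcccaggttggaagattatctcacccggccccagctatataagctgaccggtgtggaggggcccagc
AMOTL2, chr3:134374448-134374697: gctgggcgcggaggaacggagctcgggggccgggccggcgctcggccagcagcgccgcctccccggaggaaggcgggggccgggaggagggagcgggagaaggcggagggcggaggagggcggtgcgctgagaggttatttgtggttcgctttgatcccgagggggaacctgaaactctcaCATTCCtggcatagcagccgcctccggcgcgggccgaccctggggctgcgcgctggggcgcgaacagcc
AJUBA, chr14:22976843-22977092: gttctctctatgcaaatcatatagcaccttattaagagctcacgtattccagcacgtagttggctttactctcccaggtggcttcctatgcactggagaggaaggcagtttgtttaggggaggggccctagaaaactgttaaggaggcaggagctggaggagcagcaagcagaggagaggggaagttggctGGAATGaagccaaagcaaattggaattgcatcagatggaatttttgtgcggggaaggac
The window of CTGF held 3 elements, at positions -169, -104 and -95 from the start. That of ANKRD1 held 2, and 1 match to the AP-1 site TGANTCA. AMOTL2, AJUBA and YAP1 held 1 each. The AMOTL2 and AJUBA windows shown precede alternative starts inside the annotated gene, and the windows of the outer starts (chr3:134375418-134375667 and chr14:22982552-22982801) held none. WWTR1, with 2 starts, and LATS2 held none either. The CArG box of serum response factor was in no window of these genes, against 1.16% of all promoters. Of 35116 promoter windows of this length, 11.9% held at least 1 TEAD element, 0.940% at least 2 and 0.0826% at least 3, and 6.57% held an AP-1 site. CTGF thus had the most elements of the windows matched and one of the smaller differences between the groups. A match is a description of the letters and not evidence of binding, and the counts do not tell which start was used.

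Of the coactivators, YAP1 was higher in shBry by less than the fold limit, and the groups overlapped for WWTR1. YAP1 (chromosome 11, 102110461 to 102233423, plus strand; GRCh38, GENCODE 29 for all positions of genes) stood at 107, 131 and 121 CPM in shBry 1, 2 and 3 and at 78.6, 75.0 and 92.1 CPM in shNC 1, 2 and 3. The groups did not overlap, with means of 119.6 ± 12.0 and 81.9 ± 9.0 CPM (SD, n = 3). The log2 fold change was 0.55 with a standard error of 0.10 (1.46-fold, 95% confidence interval 0.33 to 0.76; edgeR adjusted p = 0.00038), just under the fold limit. Leaving out 1 library moved it past that limit in 2 cases, to 0.62 without shBry 1 and to 0.61 without shNC 3. An antisense gene, AP000942.2, overlaps 9.97% of its exon bases, and 0.45% of the 50-base stretches of YAP1 are also in the pseudogene YAP1P1. Whether counting used strand is not given in the sources used here.

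WWTR1 (chromosome 3, 149517235 to 149736714, minus strand) stood at 53.5, 55.7 and 57.8 CPM in shBry and at 55.8, 48.8 and 48.3 CPM in shNC. Its groups overlapped and the log2 fold change was 0.13 (SE 0.09, interval -0.07 to 0.32; edgeR adjusted p = 0.26), which leaves out changes of 1.5-fold or more in either direction. Its exons are overlapped over 9.45% of their bases by WWTR1-AS1. The balance of the pair was compared as the log2 ratio of YAP1 to WWTR1 counts within a library. It was 1.0, 1.23 and 1.06 in shBry and 0.50, 0.62 and 0.93 in shNC, a difference of 0.42. An exact two-sided permutation test gave p = 0.1, the smallest value that 3 against 3 libraries allow (0.133 adjusted over the 4 ratios computed).

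Among the DNA-binding partners, the RNA of TEAD1 and TEAD4 did not pass the test. TEAD1 (chromosome 11, 12674591 to 12944483, plus strand) stood at 83.8, 125 and 94.6 CPM in shBry and at 84.8, 80.8 and 103 CPM in shNC, so that shBry 2 and shNC 3 were the high libraries. Its log2 fold change was 0.17 (SE 0.13, interval -0.11 to 0.46; edgeR adjusted p = 0.29). It was -0.02 without shBry 2 and 0.07 with both high libraries left out. In those libraries, the ones whose deviations rose with exon length, TEAD1 lay 0.48 and 0.32 above the mean of the other libraries of the group on the log2 scale. YAP1 lay 0.20 and 0.26 above. Members with exon lengths near that of YAP1 differed: LATS2 was at 0.10 and 0.06, AMOTL2 at -0.12 and -0.04, and AJUBA at -0.20 and -0.04. WWTR1, with longer exons, was at 0.004 and -0.11, and ANKRD1, with shorter ones, at -0.21 and 0.41. The part of exon length in these values was not tested. TEAD4 (chromosome 12, 2959330 to 3040673, plus strand) stood at 57.2, 45.6 and 49.6 CPM in shBry and at 51.5, 49.7 and 49.0 CPM in shNC, a log2 fold change of 0.02 (SE 0.10, interval -0.19 to 0.23; edgeR adjusted p = 0.88) whose sign changed between settings. The log2 ratio of TEAD1 to TEAD4 counts was 0.98 ± 0.45 in shBry and 0.83 ± 0.21 in shNC (exact permutation p = 0.7), and the difference of 0.15 became -0.09 without shBry 2.

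TEAD2 and TEAD3, the other members of the family, were lower in estimate and not called. TEAD2 stood at 62.5, 64.5 and 64.7 CPM in shBry and 75.9, 78.1 and 69.1 CPM in shNC (log2 fold change -0.22, edgeR adjusted p = 0.042), and CD37 overlaps 10.7% of its exon bases. TEAD3 stood at 84.2, 86.3 and 82.2 CPM against 95.4, 98.4 and 86.4 CPM (log2 fold change -0.15, edgeR adjusted p = 0.14). Per kilobase of exon, all 4 TEAD genes were expressed. In shNC the order was TEAD3 at 30.7 ± 2.05, TEAD2 at 25.0 ± 1.58, TEAD4 at 22.05 ± 0.579 and TEAD1 at 8.72 ± 1.18 CPM per kb. In shBry it was TEAD3 at 27.7 ± 0.675, TEAD4 at 22.4 ± 2.60, TEAD2 at 21.4 ± 0.413 and TEAD1 at 9.83 ± 2.06 CPM per kb, where TEAD4 and TEAD2 overlapped.

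**Figure D2:**
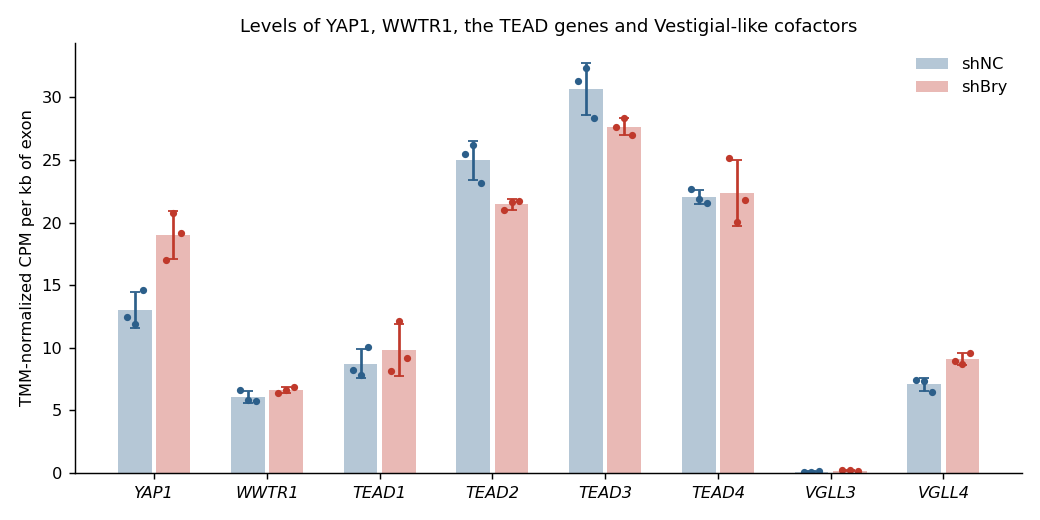
CPM per kilobase of exon of YAP1, WWTR1, the TEAD genes and the tested Vestigial-like cofactors in the shNC and shBry groups; bars are means from 0, error bars are SD and points are libraries (n = 3 per group). TEAD3 is highest and TEAD1 lowest of the 4 TEAD genes in both groups, and VGLL3 lies near 0.

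The Vestigial-like proteins bind TEADs in place of the coactivators, and VGLL4 is known as a repressor of YAP1 targets. Of the 10 genes listed as coactivators, TEADs and Vestigial-like cofactors, 4 of them members, 8 were tested, because VGLL1 and VGLL2 had 0 counts in all libraries. Only VGLL3 was called, 12.5% of those tested beside 32.4% of all genes. It was low throughout, at 2.47, 3.07 and 1.68 CPM in shBry and 0.641, 1.09 and 1.601 CPM in shNC (log2 fold change 1.13, SE 0.34; edgeR adjusted p = 0.012), and without shNC 1 the adjusted p was 0.062. VGLL4 stood at 64.9, 62.8 and 69.6 CPM in shBry and at 53.6, 53.0 and 46.9 CPM in shNC, which did not overlap. Its log2 fold change of 0.36 (edgeR adjusted p = 0.004) was under the fold limit, and 23.7% of its exon bases lie under ATG7 or AC022001.2. The median log2 fold change of the 8 genes was 0.15.

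The target genes most used as readouts of YAP1 and WWTR1 did not move alike. CYR61 (chromosome 1, 85580761 to 85583962, plus strand), a secreted matricellular protein, stood at 2114, 2026 and 2136 CPM in shBry and at 1102, 1122 and 1089 CPM in shNC. The groups lay far apart relative to their spread, with means of 2092 ± 58.1 and 1104 ± 16.5 CPM. CYR61 rose by 0.92 on the log2 scale (SE 0.07, interval 0.77 to 1.08, 1.90-fold; edgeR adjusted p = 1.5e-07), and by 0.89 to 0.93 with any 1 library left out.

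CTGF (chromosome 6, 131948176 to 131951373, minus strand), its close relative in the same family of secreted proteins, stood at 361, 375 and 404 CPM in shBry and at 334, 353 and 378 CPM in shNC. These values interleave, with SDs of 21.97 CPM in shBry and 22.02 CPM in shNC. The log2 fold change was 0.10 (SE 0.08, interval -0.07 to 0.27; edgeR adjusted p = 0.32), so the interval of CTGF lay wholly below that of CYR61. The log2 ratio of CTGF to CYR61 counts was -2.46 ± 0.08 in shBry and -1.64 ± 0.10 in shNC, without overlap (difference -0.82, exact permutation p = 0.1, the smallest possible). Leaving out 1 library gave differences from -0.87 to -0.77. The antisense gene AL133346.1 overlaps 8.34% of the exon bases of CTGF.

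ANKRD1 (chromosome 10, 90912096 to 90921276, minus strand), an ankyrin-repeat protein of muscle that carcinoma cells also express, stood at 38.9, 32.6 and 36.6 CPM in shBry and at 18.1, 22.7 and 27.1 CPM in shNC. The lowest shBry library lay above the highest shNC library. ANKRD1 rose by 0.67 on the log2 scale (SE 0.14, interval 0.37 to 0.97, 1.59-fold; edgeR adjusted p = 0.00097). The call rested on shNC 1, the lowest library, without which the log2 fold change was 0.53 and under the fold limit. With shBry 2 and shNC 3 left out it was 0.85.

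AMOTL2, LATS2 and AJUBA encode proteins that act on the pathway. AMOTL2 (chromosome 3, 134355874 to 134375479, minus strand), a scaffold of the angiomotin family that holds YAP1 in the cytoplasm, stood at 298, 269.8 and 286 CPM in shBry and at 174, 166 and 165 CPM in shNC. Its groups were well separated and it rose by 0.76 on the log2 scale (SE 0.08, interval 0.60 to 0.93, 1.695-fold; edgeR adjusted p = 1.7e-06), with 0.72 to 0.78 when 1 library was left out. The pseudogene RPL39P5 overlaps 3.13% of its exon bases. LATS2 (chromosome 13, 20973032 to 21061547, minus strand), a kinase that phosphorylates YAP1 and WWTR1, stood at 41.8, 48.0 and 48.0 CPM in shBry and at 34.6, 32.8 and 35.1 CPM in shNC. The groups did not overlap, but its log2 fold change of 0.43 (SE 0.10, interval 0.22 to 0.64, 1.35-fold; edgeR adjusted p = 0.002) was under the fold limit.

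AJUBA (chromosome 14, 22971174 to 22982642, minus strand), a LIM-domain adaptor that binds and restrains the LATS kinases, changed more than any other of the 10 genes. It stood at 272, 231.04 and 259 CPM in shBry and at 105, 104 and 102 CPM in shNC. Every shBry library was more than 2-fold above the highest shNC library. AJUBA rose by 1.29 on the log2 scale (SE 0.08, interval 1.11 to 1.47, 2.45-fold; edgeR adjusted p = 1.8e-08), and by 1.23 to 1.34 with 1 library left out.

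**Figure D3:**
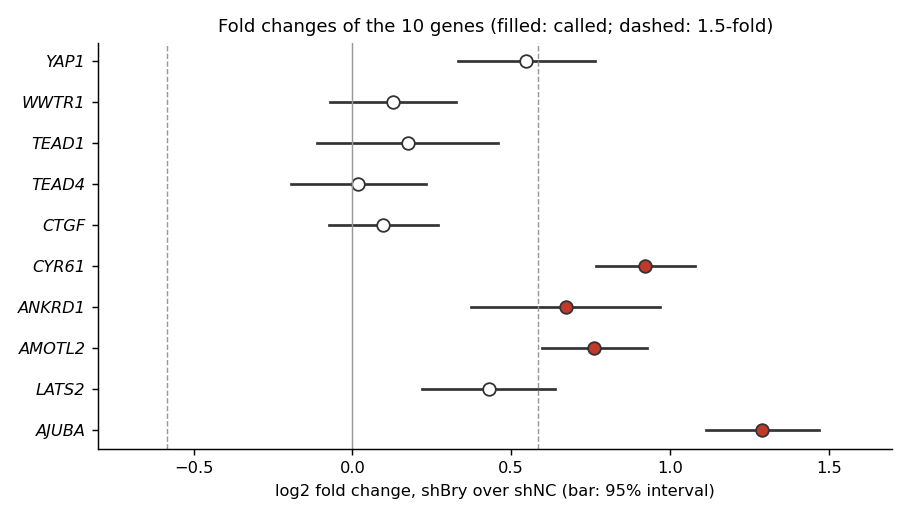
Log2 fold change of shBry over shNC from edgeR for the 10 genes, with 95% confidence intervals as bars; the dashed lines mark the fold limit of 1.5 in either direction, and filled points were called. The intervals of AJUBA, CYR61 and AMOTL2 lie wholly above the limit, those of ANKRD1, YAP1 and LATS2 lie above 0 and reach across it, and those of CTGF, WWTR1, TEAD1 and TEAD4 include 0.

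Relatives of AMOTL2 and AJUBA went the other way or were not called. Of the 6 angiomotin and Ajuba family genes, 2 of them members, 2 rose and 2 fell (66.7% called, beside 32.4% of all genes), with a median log2 fold change of -0.18. The 2 that rose were the members. Without them, 2 of 4 were called (50%), both lower, with a median of -0.50. AMOTL1 stood at 34.7, 41.8 and 34.5 CPM in shBry and at 63.4, 61.1 and 65.3 CPM in shNC and fell by 0.77 on the log2 scale (SE 0.10; edgeR adjusted p = 1.6e-05). AMOT, which founds the family, stood at 4.20, 6.11 and 4.12 CPM against 7.51, 7.42 and 9.21 CPM and fell by 0.74 (edgeR adjusted p = 0.0048). For both, every shBry library lay below every shNC library, the reverse of AMOTL2. The log2 ratio of AMOTL2 to AMOTL1 counts, a comparison chosen after the values were seen, was 2.95 ± 0.23 in shBry and 1.41 ± 0.07 in shNC (difference 1.54, exact permutation p = 0.1, the smallest possible). The Ajuba relatives LIMD1 (70.6, 71.6 and 80.3 against 88.4, 86.9 and 91.6 CPM; log2 fold change -0.26) and WTIP (10.7, 8.80 and 11.3 against 11.3, 12.4 and 9.31 CPM; -0.10) were not called. LIMD1 was lower without overlap (edgeR adjusted p = 0.017) but under the fold limit, while the groups overlapped for WTIP (edgeR adjusted p = 0.61).

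Per kilobase of exon, which allows genes to be compared, the 10 genes spanned a wide range. In shNC, CYR61 stood at 449.7 ± 6.71 CPM per kb (percentile 99.7 of 13591 tested genes with a known exon length) and CTGF at 152 ± 9.42 (percentile 98.3). AMOTL2 followed at 28.1 ± 0.813, TEAD4 at 22.05 ± 0.579, AJUBA at 17.4 ± 0.279, YAP1 at 13.0 ± 1.43, ANKRD1 at 11.4 ± 2.27, TEAD1 at 8.72 ± 1.18, LATS2 at 6.12 ± 0.218 and WWTR1 at 6.06 ± 0.494 CPM per kb. ANKRD1 overlapped both YAP1 and TEAD1, and LATS2 overlapped WWTR1. In shBry the order was CYR61 at 852 ± 23.7, CTGF at 162 ± 9.39, AMOTL2 at 47.6 ± 2.39, AJUBA at 42.5 ± 3.51, TEAD4 at 22.4 ± 2.60, YAP1 at 18.998 ± 1.90, ANKRD1 at 18.2 ± 1.599, TEAD1 at 9.83 ± 2.06, LATS2 at 8.23 ± 0.643 and WWTR1 at 6.61 ± 0.255 CPM per kb. AJUBA thus stood above TEAD4 in shBry and below it in shNC, with no overlap of libraries in either group. Within shBry, the neighbouring levels of AMOTL2 and AJUBA, of TEAD4 and YAP1, of YAP1 and ANKRD1, and of TEAD1 and LATS2 overlapped.

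The wider Hippo kinase module was called at about the rate of all genes. Of its 23 listed genes, LATS2 among them, 22 were tested and 8 were called (36.4%, beside 32.4% of all genes), 3 higher and 5 lower, and the median log2 fold change of 0.03 was that of all genes. FRMD6, a FERM-domain activator of the kinases, rose from 79.1 ± 9.11 to 122 ± 7.85 CPM (log2 fold change 0.62, edgeR adjusted p = 8.2e-05), a call that was lost without shBry 2 (0.58) or without shNC 2 (0.53). MAP4K3, a kinase that acts on LATS1 and LATS2, rose from 7.78 ± 1.30 to 14.0 ± 2.46 CPM (0.85, edgeR adjusted p = 0.00077). MOB1B, a coactivator of the LATS kinases, rose from 10.7 ± 2.73 to 17.1 ± 5.42 CPM (0.68, edgeR adjusted p = 0.017). Its groups overlapped and the call was lost without shBry 2 (0.39), without shNC 1 (0.50) and with shBry 2 and shNC 3 left out (0.55).

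Its paralog MOB1A fell from 121 ± 19.01 to 79.5 ± 10.5 CPM (log2 fold change -0.60, edgeR adjusted p = 0.00063), although the fold dropped under the limit without shBry 1 (-0.54), shBry 3 (-0.56) or shNC 3 (-0.50). TAOK2, a kinase upstream of STK3 and STK4, fell from 85.6 ± 7.77 to 41.6 ± 2.004 CPM (-1.04, edgeR adjusted p = 5.6e-07). MAP4K2 fell from 76.1 ± 3.52 to 48.1 ± 0.509 CPM (-0.66, edgeR adjusted p = 1.5e-05). The protocadherin DCHS1 was scarce and fell from 2.17 ± 0.122 to 0.941 ± 0.396 CPM (-1.23, edgeR adjusted p = 0.0043). The other gene called lower was its partner FAT4 (-0.84), named here after its value was seen. NF2 RNA stood at 21.4 ± 1.82 CPM in shBry and 21.0 ± 0.709 CPM in shNC, a log2 fold change of 0.02 whose sign changed between settings.

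**Figure D4:**
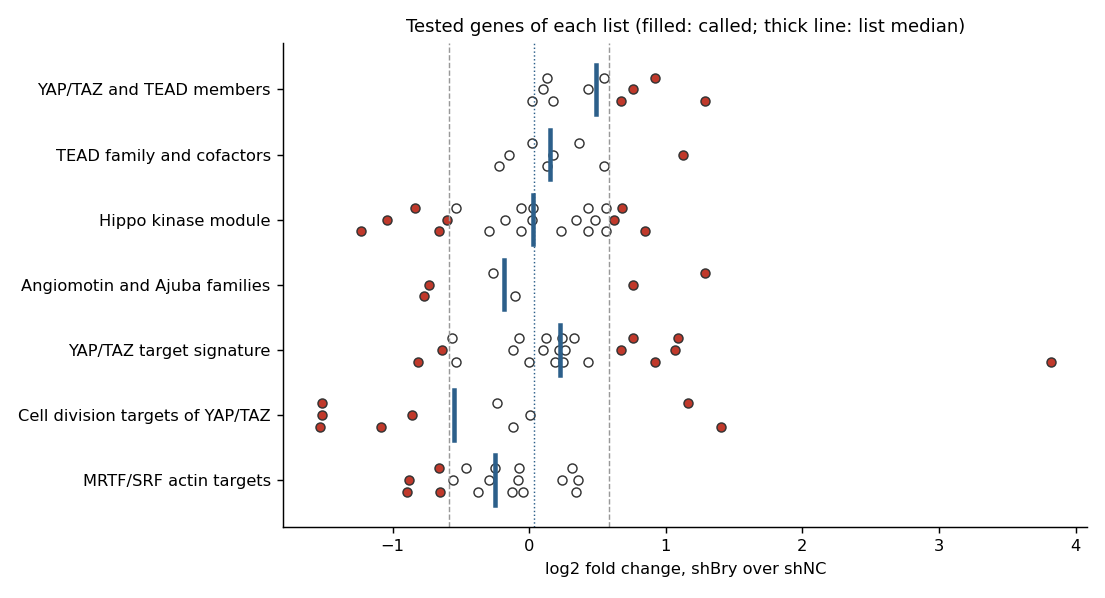
Log2 fold changes of shBry over shNC for every tested gene of the 7 lists; each point is 1 gene, filled where called, the short bar is the list's median the dashed lines mark the fold limit of 1.5 and the dotted line the median of all genes (0.03). The medians run from -0.55 for the cell division targets to 0.49 for the 10 member genes, and all called genes of the serum response factor list lie below 0.

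A list of 22 genes widely used as a signature of YAP1 and WWTR1 activity, 5 of them members, was tested in full. Of these, 8 were called (36.4%, beside 32.4% of all genes), 6 higher and 2 lower, with a median log2 fold change of 0.23. Without the members, 5 of 17 were called (29.4%), 3 higher and 2 lower, with a median of 0.19, so the share called was close to that of all genes. GADD45A, a stress-response gene that binds PCNA and is also known as a target of p53, rose from 24.9 ± 1.68 to 352 ± 53.7 CPM (14.1-fold, log2 fold change 3.82; edgeR adjusted p = 1.3e-11). F3, which encodes tissue factor, rose from 97.1 ± 9.01 to 204 ± 16.5 CPM (1.07, edgeR adjusted p = 3.5e-07). NUAK2, an AMPK-related kinase, rose from 9.89 ± 0.451 to 21.0 ± 0.832 CPM (1.09, edgeR adjusted p = 4.4e-06).

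The signature also held 2 genes that fell. CCDC80, a matrix protein, went from 275 ± 12.9 to 157 ± 7.37 CPM (log2 fold change -0.81, edgeR adjusted p = 1.1e-06). CRIM1, a transmembrane binder of bone morphogenetic proteins, went from 194 ± 5.99 to 125 ± 13.7 CPM (-0.63, edgeR adjusted p = 3.9e-05) and was under the fold limit without shBry 1 (-0.55). AXL, a receptor tyrosine kinase often used as a target of YAP1, stood at 1121, 1162 and 1131 CPM in shBry and 906, 875 and 938 CPM in shNC. Its groups did not overlap, and its log2 fold change of 0.33 (edgeR adjusted p = 0.0017) was under the fold limit. Without that limit, 8 of the 17 genes that are not members passed, 4 higher and 4 lower. Over all genes, 53.3% passed and 28% were higher. PTPN14 and TGFB2 were lower in shBry without overlap, also under the fold limit. They stood at 108 ± 16.9 and 3.70 ± 0.413 CPM in shBry and at 156 ± 12.8 and 5.49 ± 0.369 CPM in shNC.

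The cell division and DNA replication genes listed as targets of YAP1 and TEAD at enhancers moved mostly down. Of 10 genes, 7 were called (70%, beside 32.4% of all genes), 2 higher and 5 lower, with a median log2 fold change of -0.55. The 5 genes called lower were MCM3, MCM7, GINS1, POLA2 and TOP2A. MCM3 fell from 386 ± 11.6 to 133 ± 8.18 CPM (-1.53, edgeR adjusted p = 2.1e-09) and MCM7 from 446 ± 12.6 to 156 ± 9.57 CPM (-1.51, edgeR adjusted p = 2.2e-09). Both are subunits of the replicative helicase. GINS1, a further helicase component, fell from 43.9 ± 1.09 to 15.4 ± 0.610 CPM (-1.52, edgeR adjusted p = 3.2e-08). POLA2, a subunit of the DNA polymerase alpha-primase complex, fell from 36.6 ± 1.34 to 20.2 ± 1.09 CPM (-0.86, edgeR adjusted p = 9.6e-06). On the same strand, AP000944.2 overlaps 35.1% of the exon bases of POLA2. The other gene called lower was TOP2A (-1.09), a topoisomerase named here after its value was seen. Not called were CDC6 (87.8 ± 2.64 CPM in shNC and 88.2 ± 6.73 CPM in shBry), POLE3 (145 ± 2.13 and 134 ± 10.3 CPM) and RAD18 (32.7 ± 1.39 and 27.7 ± 3.59 CPM). The genes that rose do not belong to the replication machinery: the transcription factor ETS1 went from 206 ± 19.4 to 544 ± 31.8 CPM (1.40, edgeR adjusted p = 1.4e-08) and the G1 kinase CDK6 from 22.4 ± 2.24 to 50.2 ± 5.63 CPM (1.16, edgeR adjusted p = 1.4e-06).

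Targets of serum response factor and its actin-sensing coactivators, which share many cytoskeletal genes with YAP1, were listed beside them. Of 17 genes, 4 were called (23.5%, beside 32.4% of all genes), all lower, with a median log2 fold change of -0.25. Without the fold limit 11 passed, 8 lower and 3 higher, where 53.3% of all genes passed and 28% were higher. VCL, which encodes vinculin of focal adhesions, fell from 228 ± 24.6 to 122 ± 8.09 CPM (-0.90, edgeR adjusted p = 2.2e-06). TGFB1I1, a focal adhesion adaptor, fell from 64.0 ± 6.13 to 34.7 ± 1.44 CPM (-0.88, edgeR adjusted p = 4.2e-06). MYL9, a myosin light chain, fell from 106 ± 2.25 to 67.0 ± 3.89 CPM (-0.66, edgeR adjusted p = 1.1e-05). ACTB fell from 5215 ± 211 to 3324 ± 293 CPM (-0.65, edgeR adjusted p = 1.8e-05), with a count that may be shared with its processed pseudogenes. SRF itself stood at 228, 213 and 218 CPM in shBry and 176, 177 and 160.1 CPM in shNC (0.36, edgeR adjusted p = 0.0014) and was not called. The other 2 genes that were higher without the fold limit were TPM1 (0.34), a tropomyosin, and ZYX (0.32), which encodes zyxin of focal adhesions.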

How the data were processed

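Bulk RNA-seq covered MDA-MB-231 shBry and shNC cells, with 3 libraries each, grouped by their labels. The deposited table holds raw counts per gene symbol and library, which the authors had not normalized. The submitters' processing notes name HISAT2 2.0.4, HTSeq and GRCh38. Strand setting and annotation release are not given in the sources used here. Library totals were 19319411 to 22985371 counts.

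Counts were filtered with filterByExpr (minimum count 10), scaled by TMM and tested with edgeR 4.0.16 (glmQLFit and glmQLFTest; R 4.3.3) over all 15277 genes, with Benjamini-Hochberg adjustment. A gene was called at an adjusted p below 0.05 and a fold change over 1.5. The standard error is the log2 fold change divided by the square root of F. CPM used TMM-scaled library totals, and CPM per kb the union of exons in GENCODE 29, matched by symbol for 13591 tested genes. The test was checked on simulated counts. Count ratios within a library used a pseudocount of 0.5 and the exact permutation test.

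The 10 genes and all lists were chosen with earlier results of these data known. The genes named were the members, all tested genes of the TEAD family and angiomotin and Ajuba lists, and in each further list up to 4 called genes per direction, taken by adjusted p. AXL, FAT4, NF2, SRF, TOP2A, TPM1, ZYX, MSLN, CALB2 and LRRN4, and their alternatives, were added after their values were seen. The levels of VIM, CAV1, GATA3, FOXA1, EPCAM, KDR, CDC6, POLE3, RAD18, PTPN14, TGFB2, STK3, STK4 and LATS1 were also added after they were seen, without alternatives. Alternatives were DESeq2 1.42.0, limma-voom 3.58.1, other filters, scaling and fold limits, the unadjusted p, the replicate block and leaving out each library.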

Additional observations from a re-analysis of the deposited data

How the results depend on the processing

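With 15277 genes tested, 4945 were called. The count was 2297 at a fold limit of 2, 8139 with no limit, 4632 in DESeq2, 4953 in limma-voom, 5334 with no expression filter, 4432 with at least 10 counts in every library and 4587 to 5025 with 1 library left out. Of the 10 members, 4 were called in DESeq2, in limma-voom, without TMM and under both other filters, 1 at a fold limit of 2, 6 with no limit, and 3 (without shNC 1) to 5 (without shBry 1 or without shNC 3) with 1 library left out. For the TEAD family list the count was 4 with no limit and 0 to 2 with 1 library left out. The Hippo kinase list gave 2 at a limit of 2, 15 with no limit and 7 to 10 with 1 library left out, the angiomotin and Ajuba list 1 at a limit of 2, the target signature 3 at a limit of 2 and 7 to 10 with 1 library left out, and the serum response factor list 0 at a limit of 2 and 11 with no limit. The log2 fold change of TEAD4 turned to -0.00234 in DESeq2, -0.00205 without TMM, -0.00751 with no filter and ran from -0.0776 to 0.0754 with 1 library left out. That of TEAD1 ran from -0.0193 to 0.29, and the TEAD1 to TEAD4 ratio from -0.0906 to 0.36. The cause was not tested. That of NF2 (0.02) turned to -0.000437 with no filter and -0.0959 with shBry 2 and shNC 3 left out, and ran from -0.0522 to 0.0874 with 1 library left out. Of 700 alternative values of 50 genes given with a fold change, 671 kept their direction and side of the threshold, 16 lost the call, 2 gained it and 11 changed sign. The setting with unadjusted p kept the main fold changes, so it could neither change a sign nor lose a call. Many of the 50 genes were named because they were called with a small adjusted p. These counts therefore do not stand for genes in general. The median over all genes moved between -0.02 and 0.04.

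Correlations do not settle whether the replicate numbers pair the libraries, because deviations within a group depend on each other. Deviations of same-numbered libraries correlated at 0.246, -0.129 and -0.054. Library shBry 1 correlated best with shNC 1, and shBry 2 with shNC 3 (0.307). With the replicate block, 4914 genes and 4 members were called, and the smallest exact p of a ratio was 0.25.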
